A study of Mus musculus with 5 samples.

Results

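The genes that carry the insulin signal from its receptor to the kinase Akt were measured in primary adipocytes of wild-type mice. They were chosen by name: the receptor Insr, the docking proteins Irs1 and Irs2, the PI3-kinase subunits Pik3r1, Pik3ca and Pik3cb, the kinases Akt1 and Akt2, and the receptor inhibitor Grb14. All 9 were found, among 24355 symbols in the deposited table. The cells had been isolated from epididymal adipose tissue of C57BL/6 mice aged 17 weeks, and 3 RNA-seq libraries of wild-type cells form the single group, replicates 1, 2 and 3. The series also lists 2 bisulfite libraries, from wild-type cells and from cells lacking the DNA methyltransferase Dnmt1 in adipocytes (Dnmt1 AKO), which were not analysed here, so genotypes were not compared. The labels do not say whether the libraries came from separate animals or pools, so SDs describe the spread among the 3 samples alone, part or all of which may be technical. The p-values also refer to these 3 samples alone, and they do not measure that spread.

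Insulin binds a receptor tyrosine kinase on the fat cell surface. The activated receptor phosphorylates IRS docking proteins, these recruit PI3-kinase, and the lipid it makes brings Akt to the membrane, where PDK1 and mTOR complex 2 activate it. In adipocytes this pathway moves the glucose transporter GLUT4 to the cell surface, restrains lipolysis and favours lipid synthesis. Akt2 is the isoform most closely tied to insulin-stimulated glucose uptake, and Akt1 is the more widely expressed one.

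Values are FPKM, that is, mapped fragments divided by transcript length and by library size, so levels of different genes can be set side by side. An FPKM is a share of the RNA in a library, not an amount per cell, and the read depth behind it is unknown. In bulk samples fewer cells of a type and less RNA per cell cannot be told apart. The label of adipocytes was checked against 12 marker genes. All 12 reached FPKM 1 in every library, led by Cfd, Retn and Adipoq with means of 3513, 846 and 794 FPKM. The preparation also held markers of other cells. All 12 endothelial genes, led by Gpihbp1 and Cldn5 with means of 1230 and 505 FPKM, and all 12 macrophage genes, led by Lyz2 and C1qb with means of 1003 and 394, reached FPKM 1 in every library. So did the 10 fibroblast and 8 mural genes, led by Ly6a and Dcn at 575 and 545 and by Rgs5 and Tagln at 227 and 175, and the 6 mesothelial genes, led by Upk3b and Msln at 36.5 and 17.2. Of 8 lymphocyte genes 3 did, with Il7r and Cd79a highest at 3.74 and 3.32.

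Replicate 1 stood apart from the other libraries. The 12 adipocyte genes summed to 13892 FPKM there, against 4572 in replicate 2 and 4697 in replicate 3, and 11 of the 12 were highest in it. The 12 endothelial genes summed to 2075, 4587 and 4354 FPKM, and 12 of 12 were lowest in replicate 1. Spermatid and testis genes also differed, with 10 of them summing to 1206, 22.7 and 9.91 FPKM, led by Prm2 and Prm1. The source of that RNA was not tested. The insulin signalling genes are therefore given library by library, and for some results the value without replicate 1 is added.

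Across the pathway, mean levels spanned from Akt1 at 100.3 FPKM down to Irs1 at 1.46. In order of the mean they ran Akt1, Akt2, Irs2, Pik3r1, Pik3cb, Insr, Pik3ca, Grb14 and Irs1. Locations are those of the table, whose loci lay within 50 bases of the RefSeq GRCm38.p6 gene at both ends for 5 of the 9 genes. The kinases at the end of the cascade stood highest, and the receptor and the catalytic PI3-kinase subunits stood between 7.45 and 7.87 FPKM. In every library 8 of the 9 genes reached FPKM 1, the level taken here as detection. The exception was Irs1, which did so in replicate 1 alone. Of the 24330 symbols left after removing calendar dates, 45.5% reached FPKM 1 in every library. Among the 11993 expressed genes, those whose mean FPKM was at least 1, Akt1 lay at percentile 94.0, Akt2 at 87.7, Insr at 44.5 and Irs1 at 5.76.

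**Figure D1:**
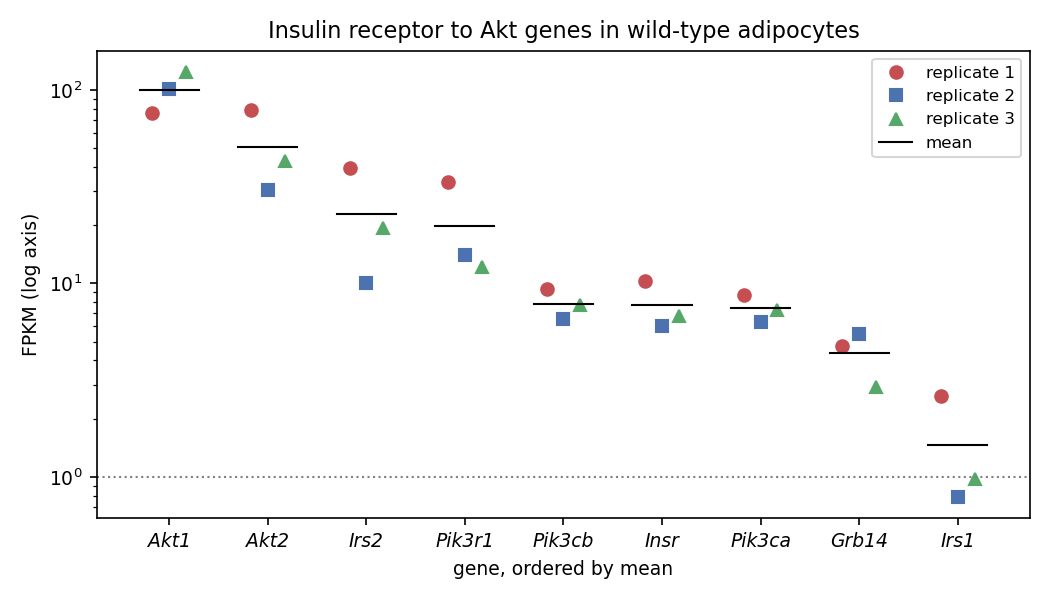
FPKM (log axis) of the 9 genes in replicates 1, 2 and 3, with bars at the means and a dotted line at FPKM 1. Akt1 has the highest mean at 100.3 FPKM, Irs1 the lowest at 1.46, and Irs2, Pik3r1, Akt2 and Irs1 lie clearly higher in replicate 1.

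Some neighbours in this order were not separated. A pair was taken to differ beyond its spread when its log2 ratio within a library kept 1 sign in 3 of 3 libraries and its mean exceeded its SD. By this rule 4 of the 8 neighbouring pairs differed: Akt2 over Irs2 by 1.24 ± 0.305 log2 units (SD, n = 3), Pik3r1 over Pik3cb by 1.19 ± 0.600, Pik3ca over Grb14 by 0.79 ± 0.541, and Grb14 over Irs1 by 1.66 ± 0.914. Akt1 and Akt2, Irs2 and Pik3r1, Pik3cb and Insr, and Insr and Pik3ca each changed places in at least 1 library. The order therefore falls into an upper pair of Akt kinases, a middle pair of Irs2 and Pik3r1, a lower group of Insr and the catalytic subunits, then Grb14, then Irs1.

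The insulin receptor gene Insr (chromosome 8, 3150922 to 3279617) was expressed at a moderate level. It stood at 10.3 FPKM in replicate 1, 6.06 in replicate 2 and 6.80 in replicate 3, a mean of 7.71 ± 2.25 (SD, n = 3). Replicate 1 was the highest, 1.69-fold above the lowest. Igf1r, the related receptor for insulin-like growth factors, was steadier, at 2.79, 2.52 and 3.01 FPKM. Insr exceeded Igf1r in 3 of 3 libraries, by 1.41 ± 0.379 log2 units or 2.65-fold (exact two-sided sign-flip permutation p = 0.25, n = 3). Without replicate 1 that mean was 1.19. Insr made up 78.6%, 70.6% and 69.3% of the summed FPKM of these receptor genes in replicates 1, 2 and 3. The orphan receptor gene of the same family, Insrr, was near 0: replicate 1 gave 0.0607 FPKM, replicate 3 gave 0.0157, and replicate 2 was listed at 0.

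Grb14, which binds the active insulin receptor and blocks its kinase, was the only member highest in replicate 2. Grb14 (chromosome 2, 64912482 to 65022766) had 4.76 FPKM in replicate 1, 5.48 in replicate 2 and 2.92 in replicate 3. Its mean was 4.39 ± 1.32 FPKM. It lay below Insr in 3 of 3 libraries, with a log2 ratio of -0.81 ± 0.580 (exact p = 0.25, n = 3), but in replicate 2 the ratio was only -0.14. Its paralog Grb10, an imprinted gene that also inhibits insulin and IGF receptors, was higher and nearly constant, at 14.1, 13.2 and 13.1 FPKM. The ratio of Grb14 to Grb10 was -1.64 ± 0.443 log2 units, below 0 in 3 of 3 libraries (exact p = 0.25, n = 3). Grb14 held 24.2% ± 5.56 of the FPKM summed over Grb14, Grb10 and Grb7, and the third paralog Grb7 held 0.519%.

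Irs2 was by far the more abundant of the docking protein members. Irs2 (chromosome 8, 10986964 to 11008430) had 39.6 FPKM in replicate 1, 10.1 in replicate 2 and 19.2 in replicate 3. Irs1 (chromosome 1, 82233105 to 82291439) stood at 2.61, 0.792 and 0.978 FPKM. Both were highest in replicate 1 and lowest in replicate 2, by 3.93-fold for Irs2 and 3.30-fold for Irs1. Their ratio varied much less than either gene, at 3.87, 3.51 and 4.17 log2 units, a mean of 3.85 ± 0.327 or 14.4-fold (exact p = 0.25, n = 3). With a pseudocount of 1 in place of 0.1 the mean was 3.16. Insr likewise exceeded Irs1 in 3 of 3 libraries, by 2.47 ± 0.464 log2 units (exact p = 0.25, n = 3).

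Irs3, a short IRS protein of rodent fat, ranked between them at 9.34, 4.56 and 4.19 FPKM, also highest in replicate 1. Irs4 was at 0.00894 FPKM in replicate 1 and listed at 0 in the other libraries. Of the FPKM summed over these 4 genes, Irs2 held 73.6% ± 7.29, Irs3 21.6% ± 6.90 and Irs1 4.74% ± 0.633. The share of Irs1 thus stayed between 4.01% and 5.13% while the sum itself ran from 51.5 FPKM in replicate 1 to 15.4 in replicate 2 and 24.4 in replicate 3.

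The upstream sequences of Irs1 and Irs2 are shown because these paralogs hold a letter arrangement in common. They were not the only members that ranked the libraries alike: Insr, Pik3ca, Pik3cb and Akt2 did so in the same order. RefSeq start sites of GRCm38.p6 were held for 8 of the 9 members. The 250 bases before each start were searched on both strands for CACGTG (a form of the E-box, whose other forms were not searched) and TGTTT (a core of FOXO binding sites), both in capitals below. FOXO factors are excluded from the nucleus by Akt, and Irs2 is a known FOXO target in mouse liver.
Irs1, chr1:82291440-82291689, minus strand: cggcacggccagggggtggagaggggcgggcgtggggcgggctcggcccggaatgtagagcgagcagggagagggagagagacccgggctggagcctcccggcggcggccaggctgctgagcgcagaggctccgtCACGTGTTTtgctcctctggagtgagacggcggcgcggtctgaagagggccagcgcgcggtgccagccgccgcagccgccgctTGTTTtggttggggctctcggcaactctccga
Irs2, chr8:11008930-11009179, minus strand: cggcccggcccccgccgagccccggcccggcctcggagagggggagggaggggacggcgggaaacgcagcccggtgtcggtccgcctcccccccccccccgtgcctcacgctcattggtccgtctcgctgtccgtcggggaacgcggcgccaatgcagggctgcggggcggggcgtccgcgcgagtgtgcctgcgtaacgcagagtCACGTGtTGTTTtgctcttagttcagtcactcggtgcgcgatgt
Both windows hold 1 CACGTG with a TGTTT beside it. In Irs1 the motifs overlap by the letters TG, 115 bases before the start, and in Irs2 they are 1 base apart, 44 bases before the start. To compare them, the 19 bases around each are set out here.
Irs1, chr1:82291539-82291557: cgtCACGTGTTTtgctcct
Irs2, chr8:11008958-11008976: agtCACGTGtTGTTTtgct
Of 32851 RefSeq promoters of this length, 6.02% held CACGTG, 46.4% held TGTTT, and 0.338% held both with their first letters within 12 bases. The distance and the pairing of these motifs were chosen after these sequences were seen. These shares are over all promoters, whatever their CpG content, and CACGTG itself holds a CpG. No other member with a promoter had that arrangement. The longer FOXO letters TGTTTAC, held by 3.17% of promoters, were in neither window, and the cyclic AMP response letters TGACG, held by 17.8%, were in Irs1 once and not in Irs2. A match of letters is a description and not a binding site. The Irs1 and Irs2 windows held 28 and 34 CpG dinucleotides, against a median of 6 over all promoters. Some other members had similar counts, with 32 for Pik3cb, 31 at the Akt1 start used by the table, 30 at the upstream start of Pik3r1 and 24 for Grb14. Others had fewer, with 19 for Pik3ca, 7 at the other Akt1 start, and 10, 0, 5 and 2 at the Akt2 starts. The table's Irs2 locus ends 499 bases short of this RefSeq start, so the authors' annotation used a start further inside the gene. At the 3′ end the same locus is 2283 bases short of the RefSeq gene. The effect of these gaps on the Irs2 FPKM was not tested.

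The regulatory PI3-kinase subunit gene Pik3r1, which encodes p85α and its shorter forms p55α and p50α, was far higher in replicate 1. Pik3r1 (chromosome 13, 101680761 to 101768217) had 33.4 FPKM in replicate 1, 14.0 in replicate 2 and 12.2 in replicate 3, a 2.74-fold range. The table sums transcripts of 2 start sites into this value, so long and short forms were not separated. Their RefSeq promoters differ in base composition, with 30 CpG dinucleotides in the 250 bases before the upstream start and 6 before the internal one. Pik3r2, which encodes p85β, stood at 13.5, 8.07 and 10.3 FPKM, and Pik3r1 exceeded it by 0.78 ± 0.530 log2 units in 3 of 3 libraries (exact p = 0.25, n = 3). That mean was 0.51 without replicate 1. Pik3r3, which encodes p55γ, went the other way and was lowest in replicate 1, at 3.69, 7.76 and 6.77 FPKM. The share of Pik3r1 among the 3 regulatory genes was accordingly 66.1% in replicate 1, 46.9% in replicate 2 and 41.7% in replicate 3.

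The catalytic subunit genes Pik3ca and Pik3cb, which encode p110α and p110β, were the steadiest members. Pik3ca (chromosome 3, 32436151 to 32468486) stood at 8.76, 6.35 and 7.25 FPKM, and Pik3cb (chromosome 9, 99038402 to 99140211) at 9.31, 6.52 and 7.78. The genes kept nearly the same level as each other in every library, with a log2 ratio of Pik3ca to Pik3cb of -0.0748 ± 0.0334, a fold of 0.949 (exact p = 0.25, n = 3). The table's Pik3ca locus starts 39086 bases downstream of the RefSeq gene start, so reads of the 5′ exon lie outside the authors' gene model. Pik3cd, the p110δ gene known mainly from leukocytes, stood at 6.00, 3.89 and 5.56 FPKM and held 25.1% ± 1.89 of the summed class IA catalytic FPKM, against 36.5% ± 1.34 for Pik3ca and 38.4% ± 0.585 for Pik3cb. Macrophage markers were present in every library, and their part in the Pik3cd level was not tested. Pik3r1 exceeded Pik3ca by 1.26 ± 0.600 log2 units (exact p = 0.25, n = 3). Without replicate 1 that mean was 0.93. The summed regulatory genes stood at 2.10, 1.78 and 1.42 times the summed catalytic genes in replicates 1, 2 and 3.

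**Figure D2:**
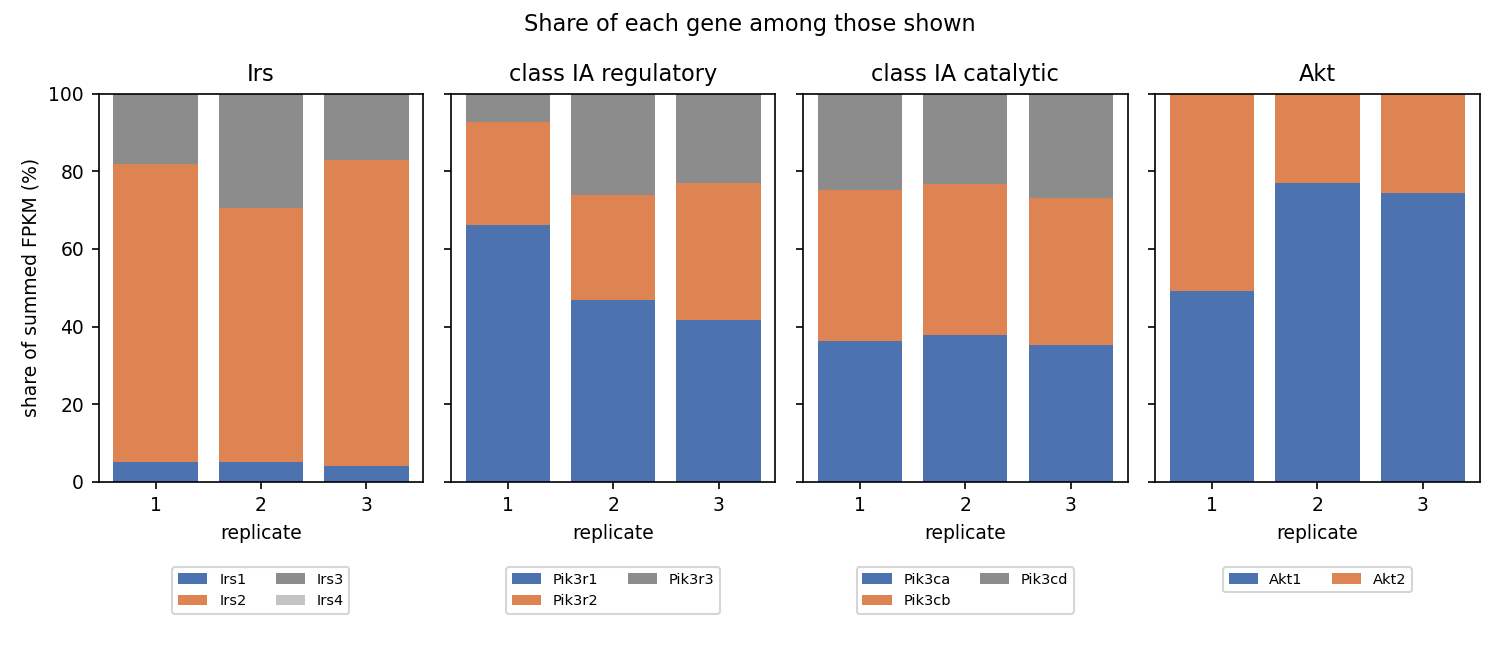
Share (%) of each gene in the summed FPKM of the genes shown with it, per replicate, for IRS docking proteins, class IA regulatory and catalytic PI3-kinase subunits and the kinases Akt1 and Akt2. Akt1 holds 49.2% of the Akt1 and Akt2 sum in replicate 1 against 77.0% and 74.3% in replicates 2 and 3, while Pik3ca and Pik3cb hold nearly equal shares in each.

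The Akt genes exchanged places between libraries. Akt1 (chromosome 12, 112653821 to 112674276) had 76.1 FPKM in replicate 1, 101 in replicate 2 and 124 in replicate 3, lowest in replicate 1. Akt2 (chromosome 7, 27591560 to 27639453) stood at 78.6, 30.3 and 42.8 FPKM, highest in replicate 1. The table's Akt2 locus is 1373 bases short of the RefSeq gene at the 3′ end, an effect not tested. The log2 ratio of Akt2 over Akt1 was 0.05 in replicate 1, so the genes were about equal there, and -1.74 and -1.53 in replicates 2 and 3. The mean of -1.07 ± 0.975 was close to its spread (exact p = 0.5, n = 3), and became -1.63 without replicate 1. Of the summed FPKM of Akt1 and Akt2, Akt1 held 49.2%, 77.0% and 74.3% in replicates 1, 2 and 3. The sum varied less than Akt2, at 155, 131 and 166 FPKM.

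**Figure D3:**
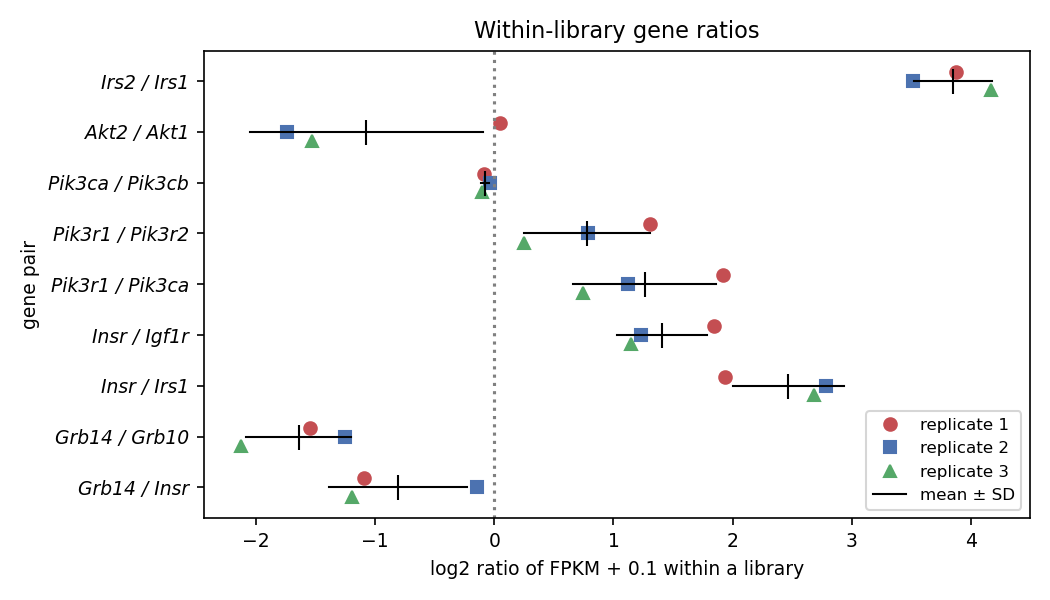
Log2 ratio of FPKM + 0.1 within each library for 9 gene pairs, with the mean and SD over replicates 1, 2 and 3. Akt2 over Akt1 is the pair with both signs, at 0.05 in replicate 1 and -1.74 and -1.53 in the other libraries.

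Of the 10 gene pairs tested, 9 had 1 sign in 3 of 3 libraries. For each of these the exact permutation p was 0.25, and its Benjamini-Hochberg adjusted value over the 10 pairs was 0.278. For Akt2 over Akt1 the exact p was 0.5 before and after adjustment. With 3 libraries 0.25 is the smallest p that the test can give, so no pair could pass 0.05.

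The members split by how far they ranged between libraries. Irs2, Irs1, Pik3r1 and Akt2 ranged 2-fold or more, 4 of the 9, against 17.9% of the 11993 expressed genes. Irs1 passed this limit on the mean through replicate 1 and fell under it without that library. All 4 were highest in replicate 1, at 2.83, 2.77, 2.55 and 2.18 times the geometric mean of the other libraries, on values with 0.1 added. Of all those genes 9.66% were at least 2-fold higher in replicate 1 in this way. Without replicate 1 the count was 0 among the 8 members still expressed, against 2.52% of 11450 genes. Counting any margin, 7 of the 9 members were highest in replicate 1, against 46.7% of the 11993 genes. The exceptions were Akt1, highest in replicate 3, and Grb14. The median of all expressed genes itself moved, at 3.29, 3.08 and 3.25 on the log2 scale in replicates 1, 2 and 3. After centring on it the same library remained highest for each member, and Grb14, with a range of 1.06 log2 units, joined the genes past 2-fold.

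**Figure D4:**
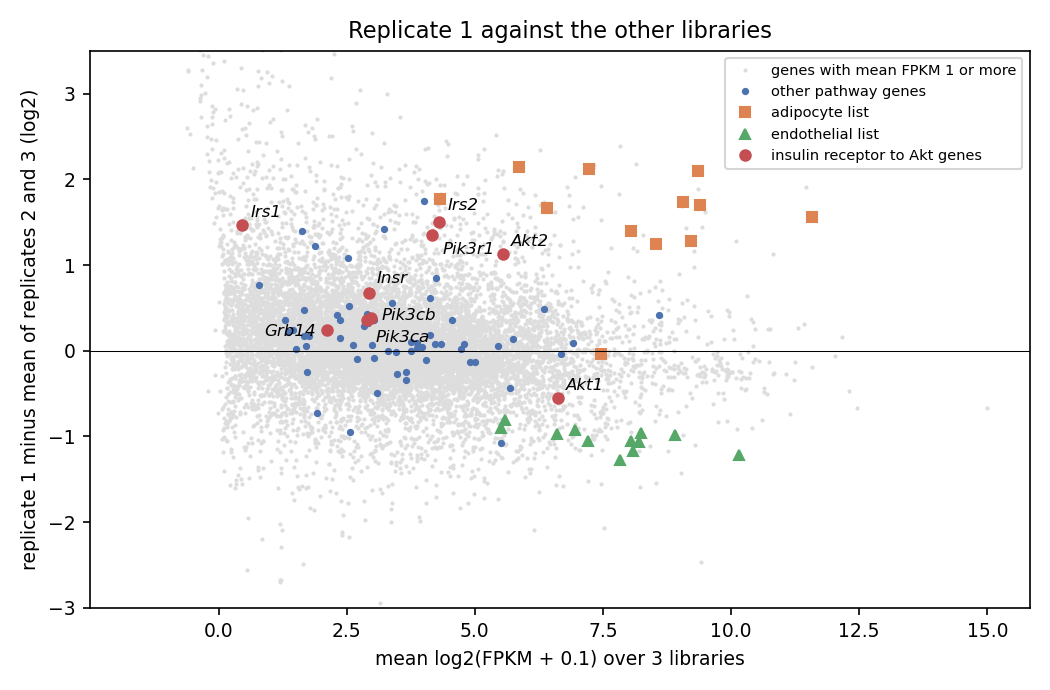
Each point is an expressed gene (mean FPKM at least 1), by its mean log2(FPKM + 0.1) and by its log2 difference between replicate 1 and the mean of replicates 2 and 3. Irs2, Irs1, Pik3r1 and Akt2 lie above 1 toward the adipocyte list, and Akt1 lies below 0, on the side of the endothelial list. By median the fibroblast, mural and mesothelial lists, not drawn, also lie below 0. The macrophage, lymphocyte and testis lists, also not drawn, lie above 0. Of the 11993 genes, 298 fall outside the drawn range of -3 to 3.5.

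The levels were also set against the median of the marker lists in the same library. Against the adipocyte list, whose median was 9.18, 7.84 and 7.88 on the log2 scale, Pik3r1 stood at -4.11, -4.02 and -4.26 log2 units, Irs1 at -7.74, -8.00 and -7.78, and Akt2 at -2.88, -2.91 and -2.46. These differences spread less than the levels themselves: the SD was 0.121 against 0.785 for Pik3r1, 0.143 against 0.858 for Irs1 and 0.252 against 0.695 for Akt2. The same held for Irs2 and Insr, so for 5 of the 9 members, against 16.4% of the 11993 genes. All 5 were highest in replicate 1, as the list median was, so this count is not separate from the replicate 1 difference given above. For Insr the SD barely moved, from 0.395 to 0.378. Pik3ca, Pik3cb, Grb14 and Akt1 spread more after the subtraction, Akt1 with an SD of 1.09 against 0.352.

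Against the endothelial list, with a median of 7.15, 8.21 and 8.46, the spread shrank for 0 of the 9 members and for 8.90% of the genes. That median was lowest in replicate 1, where 7 of the 9 members were highest. This count too is therefore not separate from the replicate 1 difference. Akt1 came closest, at -0.90, -1.55 and -1.50 log2 units, an SD of 0.363. By summed FPKM, other marker lists had the order of Akt1, lowest in replicate 1 and highest in replicate 3. The fibroblast genes summed to 992, 1506 and 1868 FPKM in replicates 1, 2 and 3, the mural genes to 482, 665 and 1180, and the mesothelial genes to 39.5, 69.6 and 146. By list median the mural and mesothelial lists kept this order, but the fibroblast list did not, at 4.43, 5.19 and 5.17 log2 units. The endothelial list had it by median and not by sum. Macrophage genes were highest in replicate 1 for 9 of 12, and lymphocyte genes summed to 13.1, 6.90 and 16.8 FPKM. Marker levels are not cell counts, and the part of RNA from any of these cell types, or from testis, in the levels of these signalling genes was not tested.

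**Figure D5:**
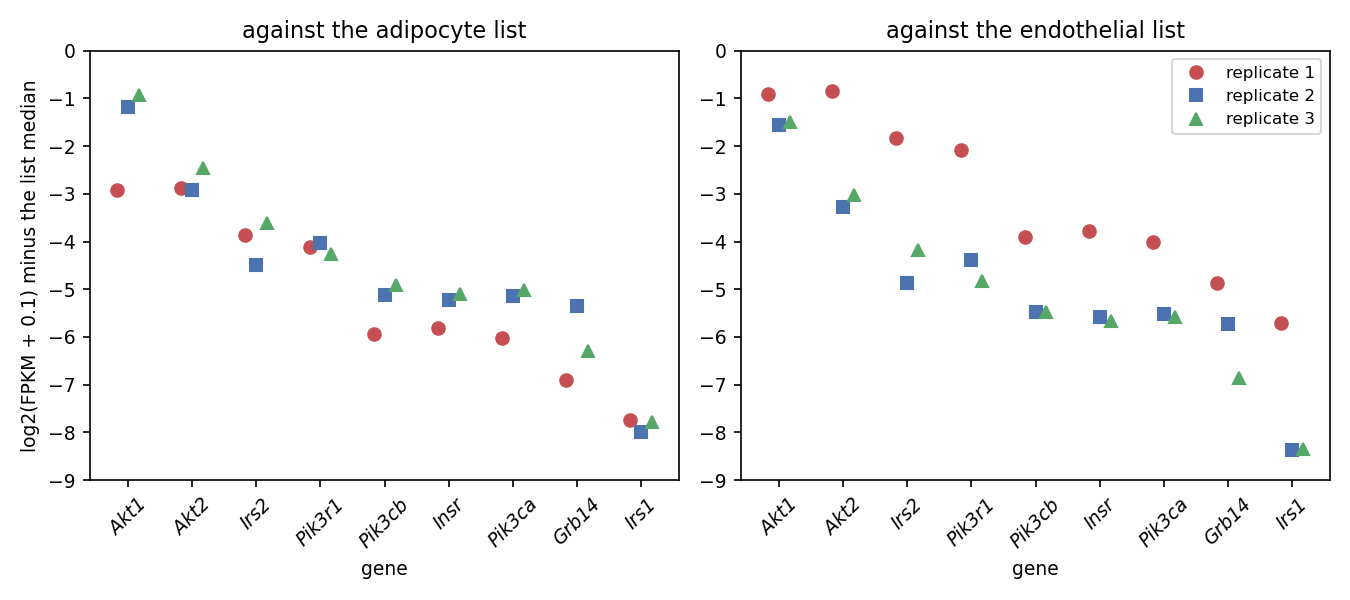
Log2(FPKM + 0.1) of each gene minus the median of the adipocyte list (left) or the endothelial list (right) in the same library, for replicates 1, 2 and 3. On the left the replicates of Pik3r1, Irs1 and Akt2 nearly coincide, with SDs of 0.121, 0.143 and 0.252, and on the right replicate 1 is the highest for each gene.

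The member profiles over the 3 libraries were compared by the Euclidean distance of log2 values centred on each gene's mean. Pik3ca and Pik3cb were the closest members, at a distance of 0.0472. Irs1 lay 0.323 from Akt2 and 0.342 from Pik3r1, and the most distant pair was Irs2 and Akt1 at 1.74. Among all expressed genes, Fbxo21 at 25.9, 9.99 and 14.2 FPKM was nearest to Akt2, followed by Morn1. Gpr65 and Lctl were nearest to Pik3r1, Mir143hg second nearest to Irs2, 1190007I07Rik and Irf4 nearest to Irs1, and Cebpzos and Rbl2 to Insr. Morn1, Lctl and Mir143hg lay below FPKM 1 in replicates 2 and 3. They passed the limit on the mean only through replicate 1, where Akt2, Pik3r1 and Irs2 were also highest. Nlgn2 and H2-M3 were nearest to Akt1, Mettl8 and Ndufa13 to Pik3ca, Ddb2 and Klhl22 to Pik3cb, and Gm3219 and Zfp638 to Grb14. With 3 libraries such likeness is common: 245 genes lay within 0.1 of Insr and 513 of Pik3ca, but 5 of Irs2 and 1 of Grb14.

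The rest of the pathway ranged between libraries about as often as genes in general. Of 66 further pathway genes in 7 lists, 60 reached FPKM 1 in every library. Of the 60 with a mean of 1 or more, 11 ranged 2-fold or more, which is 18.3% and near the 17.9% of all genes. Their median difference between replicate 1 and the other libraries was 0.0890 log2 units, against 0.0837 for all genes and 0.669 for the members. The lists were not tested against other genes.

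Among receptor adaptors Grb2, which links receptors to Ras, stood at 43.6 ± 3.42 FPKM (SD, n = 3). Among inhibitors Socs3, a feedback gene of cytokine signalling that also blocks the insulin receptor, led at 467, 333 and 370 FPKM, far above the tyrosine phosphatase gene Ptpn2 at 20.1 ± 1.38. In the PI3-kinase list Pik3r1 and Pik3r2 were highest, and Pik3cg, the p110γ gene of leukocytes, was lowest at 1.70 ± 0.633. The phosphoinositide phosphatase gene Inpp5k was highest of its list at 26.3 ± 0.803 FPKM, and Inpp4b was lowest at 0.871 ± 0.183. None of the 6 phosphoinositide phosphatase genes whose mean was at least 1 ranged 2-fold, against 17.9% of all expressed genes. With 6 genes this count does not set the list apart.

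Within the list of Akt kinases and the kinases that activate them, the mTOR complex 2 subunit gene Rictor was lowest at 3.17 ± 0.106 FPKM. Ppp2ca and Ppp2r1a, subunits of the phosphatase PP2A that can remove Akt phosphorylation, stood at 122 ± 11.5 and 103 ± 8.65, and Phlpp2 at 2.47 ± 0.417. Among Akt targets Acly, the ATP citrate lyase of lipid synthesis, led at 53.4 ± 5.15, followed by the endothelial nitric oxide synthase Nos3 at 48.8 ± 20.5, and Foxo6 was lowest at 0.317 ± 0.204.

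The 11 further genes that ranged 2-fold or more were named after their values were seen, and 7 of them were highest in replicate 1. Of all 60 expressed further genes, 28 were highest there, 46.7% and the same share as among all expressed genes. Pde3b, the phosphodiesterase through which insulin restrains lipolysis, stood at 35.9, 11.3 and 9.94 FPKM. Tbc1d4, the Rab GTPase-activating protein AS160 that holds GLUT4 inside the cell until Akt phosphorylates it, stood at 6.37, 2.43 and 2.95. Sh2b2, an adaptor of the insulin receptor also called APS, stood at 17.9, 5.50 and 7.99. The others highest in replicate 1 were Irs3, Ralgapa2, Socs1 and Pik3cg, with Ralgapa2 at 5.83, 2.08 and 2.23 and Socs1 at 27.9, 13.6 and 17.6. Nos3, Cbl and Ptprf were highest in replicate 3, with Nos3 at 27.7, 49.9 and 68.7 FPKM, and Pik3r3 was highest in replicate 2.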

How the data were processed

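RNA was measured in 3 libraries of wild-type adipocytes, extracted with trizol and made by standard Illumina methods, per the labels' protocols. The values are FPKM on a linear scale, deposited by the authors in 1 table. Per the submitters' processing notes, featureCounts, Bismark 0.22.1 and Trim Galore 0.5.0 served the series with the builds GRCm38 and mm10. Their roles are not stated, nor is the program behind the FPKM. Strandedness is not stated. The only overlapping rows were 9530052E02Rik at Irs2, at most 0.221 FPKM, and Mir6939 at Akt1, listed at 0. Columns were matched to libraries through the sample descriptions. Of 275 symbols with more than 1 row the highest row was kept, and none was a gene named in a list.

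Computations ran in Python 3.11.15 with pandas 2.3.3 and numpy 2.4.6, and plots in matplotlib 3.10.9. Ratios are differences of log2(FPKM + 0.1), which understates changes of low genes. Pairs were tested by flipping the signs of the within-library differences in all combinations (exact, two-sided), with Benjamini-Hochberg adjustment. Promoters are RefSeq's, GRCm38.p6, and locus starts are counted from 1. The functions were tested on simulated data. The column sums were 504178, 488721 and 524092 FPKM, and with no counts no interval could be given.

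The members, the 7 pathway and 8 cell type lists, and the 10 pairs were chosen with earlier results of these data known. Named genes are the members, the pair genes, the 2 highest and the lowest of each pathway list, the leading markers and the 2 genes nearest each member. Alternatives covered the pseudocount, thresholds, TPM rescaling, median centring, summed rows and leaving out each library. Some genes that the rule names, and 1 of the 10 pairs, are not reported here.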

Additional observations from a re-analysis of the deposited data

How the results depend on the processing

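Of 76 recomputed values, 75 kept their direction or stayed within 1.5 times. Many of these could not change direction. A pair with 1 sign in every library keeps it under another pseudocount or without a library. Summing rows changed nothing, because no list gene had more than 1 row. The count of 75 is therefore weak evidence of stability. The exception was the count of members ranging 2-fold or more, 4 with all libraries and 0 without replicate 1. Leaving out 1 library at a time gave 0 to 4 for that count and 8 for the members detected in every remaining library. It gave 5 to 6 for neighbours that differ beyond their spread, where 4 did with all 3. The rule is looser with a library left out, since it asks for 1 sign in the remaining libraries only. The members were also ordered anew, so these neighbour counts are not comparable. Without 1 library the ratio of Akt2 to Akt1 ran from -1.63 to -0.74. All 9 members were detected at a threshold of FPKM 0.5 or after rescaling to TPM, and 5 ranged 2-fold after median centring. With the column sums given above a TPM is larger than the FPKM, so the same limit is looser after rescaling. The shares of all genes under these settings are not given. Genes were paired within libraries, but no pairing between groups was possible because the libraries form 1 group. Depth is unknown, so the precision of low values such as those of Irs1 cannot be given.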
